A study of Homo sapiens with 12 samples.

Results

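The expression of 28 genes of cholesterol and fatty acid synthesis was examined in MiaPaca2 cells, an established human pancreatic ductal adenocarcinoma line. The genes were listed by name for their place in these pathways, and the choice was made with earlier results of these data known. Of the 28 listed, 27 were matched to Ensembl identifiers among the 63677 in the count tables, and 25 passed the filter on low counts and were tested with the other genes, 17123 in all. STARD4 and ELOVL6 did not pass the filter, and ACACA, the carboxylase that makes malonyl-CoA, was not analysed here. RNA was sequenced from 12 libraries, 3 in each of 4 groups, all from 1 cell line treated for 24 h. Control cells (Con) received the vehicle DMSO, and the CPT group received 1 µM calcipotriol, a Vitamin D analogue. The GTA+5-Aza group received 2 mM glyceryl triacetate (GTA), which cells hydrolyse to acetate, together with 1 µM 5-Aza-2′-deoxycytidine (5-Aza), an inhibitor of DNA methyltransferases. The CPT+GTA+5-Aza group received all 3 agents at those doses. Below, priming means GTA plus 5-Aza. GTA and 5-Aza were always given together, so that their parts cannot be told apart, and the labels do not say whether the 3 libraries of a group came from separate cultures. The paper's methods state in general that the samples of an experiment, 3 in number, were independent, without saying how. The p-values measure the spread between these libraries, which may in part be technical.

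Cells build cholesterol from acetyl-CoA by way of mevalonate, isoprenoid diphosphates, squalene and lanosterol, and they build fatty acids from the same acetyl-CoA by way of malonyl-CoA. The transcription factors encoded by SREBF1 and SREBF2 drive most genes of both routes when sterols in the endoplasmic reticulum run low, and INSIG1 holds their precursors back when sterols are plentiful. Tumour cells often depend on making these lipids, and acetate can enter the pathway once a synthetase has joined it to coenzyme A.

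The total count per library ran from 16162490 to 21224665. Levels are given as CPM, the count of a gene divided by its library's TMM-scaled total and set to the usual common scale of that unit. Groups were compared with edgeR's quasi-likelihood test, fitted once over the 12 libraries, and a gene was called at a Benjamini-Hochberg adjusted p under 0.05 over the 17123 genes. Of 5 markers of an epithelial carcinoma line, KRT8 at 1409 to 1740 CPM, KRT18 at 644 to 854 CPM and KRT19 at 28.4 to 41.4 CPM were present. VIM, an intermediate filament of mesenchymal cells, was higher at 5308 to 6593 CPM, and EPCAM was at 0 in 10 of the 12 libraries. Leukocyte markers summed to at most 1.74 CPM and endothelial markers to at most 0.624 CPM. Of the 5 fibroblast markers, COL1A2 at 689 to 943 CPM and COL3A1 at 84.8 to 125 CPM were present. COL1A1 was at 0.0477 to 2.2 CPM, DCN was at 0 in 9 of the 12 libraries and LUM was at 0 throughout. Their sum, mostly COL1A2, was 879 to 932 CPM in Con and 779.9 to 848 CPM in CPT cells. This sum was 988 to 1069 CPM in GTA+5-Aza and 916 to 942 CPM in CPT+GTA+5-Aza cells. The part of this in the differences below was not tested. Libraries of a group differed in base composition. The difference between the highest and the lowest GC quartile of genes, relative to the group, was 0.23 log2 in CPT replicate 2 and -0.16 in CPT replicate 3, 0.17 in GTA+5-Aza replicate 3 and -0.15 in GTA+5-Aza replicate 2, and 0.13 in Con replicate 2.

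Per length, the members spanned a wide range in control cells. RPKM (CPM per kilobase of annotated exon) was highest for SCD at 80.2 ± 5.78 (SD, n = 3) and for FASN at 79.6 ± 3.51, and these neighbours did not differ beyond their spread. ACAT2 followed at 50.9 ± 2.65 RPKM, EBP at 42.8 ± 3.04 and SREBF1 at 31.7 ± 1.65. FDPS at 26.6 ± 1.2 and LSS at 26.4 ± 1.71 RPKM were again within their spread of each other. At the low end stood CYP51A1, the lanosterol demethylase, at 0.831 ± 0.130 RPKM and SC5D, a desaturase of the late sterol steps, at 0.462 ± 0.149. ELOVL6, which elongates palmitate, had between 0 and 10 counts in a library. STARD4, a carrier of sterols between membranes, had 0 counts in each of the 12 libraries. For 1 library taken alone, a count of 0 allows up to 3 counts.

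**Figure D1:**
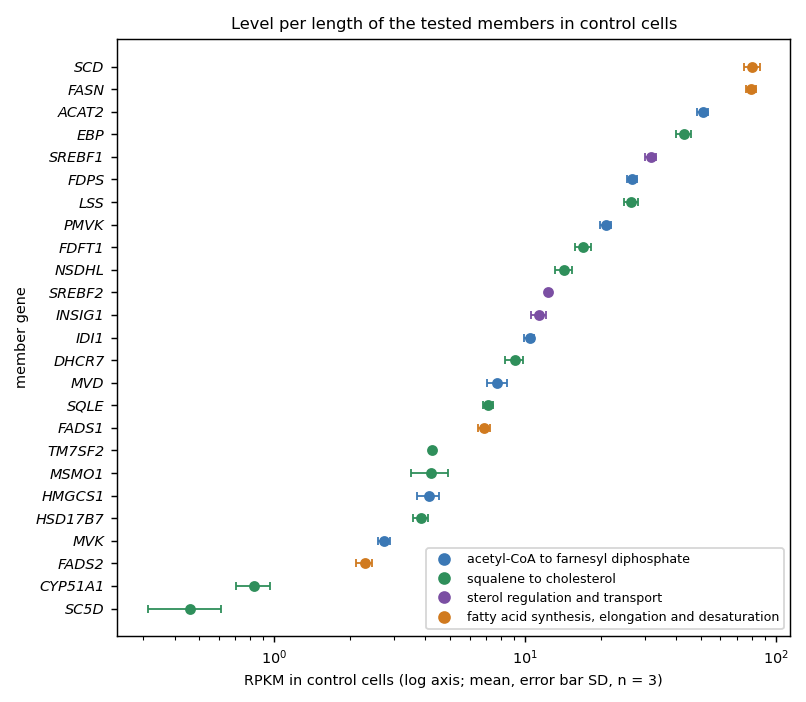
Level per length (RPKM, log axis) of the 25 tested members in control cells, with the mean as a point and the SD over 3 libraries as a bar, coloured by the member's role. SCD and FASN stand at the top near 80 RPKM, and CYP51A1 and SC5D lie below 1 RPKM.

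The promoters of the members were read from RefSeq (GRCh38.p14), since 5-Aza acts on CpG methylation and since these genes share sterol control. A window of 250 bases upstream of the annotated start was found for 24 of the 28 members, 32 windows in all, and ACAT2, FDFT1, FASN and SQLE had no match. The windows were searched on both strands for GGGCGG (a GC box), for CCAAT and for TCANNCCAC, a form of the sterol regulatory element. GGGCGG was present in 87.5% of the members' windows and in 42.6% of the 35116 windows of all genes, and CCAAT in 65.6% and 32.0%. TCANNCCAC was found in the windows of INSIG1 and SREBF2 only, 6.25% of the members' windows beside 3.14% of all. The median number of CpG dinucleotides per window was 23 in the members and 11 in all windows, whose upper quartile was also 23. The windows of all genes were not limited to the genes tested here, so this background was not matched to the members. These matches are letters in a window and no measurement of binding or of methylation. The stretches below, 5′ to 3′ on the gene's strand, belong to 2 genes higher in primed cells (TM7SF2, FADS1), 2 lower (LSS, INSIG1) and the master regulator SREBF2, and bases that GENCODE counts as exon of the gene were left out. Capitals mark the motifs in either orientation, and in INSIG1 a pair of GC boxes overlaps by 1 base. The stretches are TM7SF2 at chr11:65111622-65111844 (plus strand), FADS1 at chr11:61817198-61817253 (minus), LSS at chr21:46228825-46229024 (minus), INSIG1 at chr7:155297628-155297775 (plus) and SREBF2 at chr22:41832855-41833104 (plus). The RefSeq start of FADS1 lies inside the longer span that GENCODE gives the gene.
TM7SF2: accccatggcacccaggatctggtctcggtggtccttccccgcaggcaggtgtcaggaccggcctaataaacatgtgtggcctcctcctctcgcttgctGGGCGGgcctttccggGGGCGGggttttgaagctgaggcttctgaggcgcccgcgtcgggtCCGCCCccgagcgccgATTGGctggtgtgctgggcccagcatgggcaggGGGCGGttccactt
FADS1: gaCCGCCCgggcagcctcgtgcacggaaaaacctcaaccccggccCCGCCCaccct
LSS: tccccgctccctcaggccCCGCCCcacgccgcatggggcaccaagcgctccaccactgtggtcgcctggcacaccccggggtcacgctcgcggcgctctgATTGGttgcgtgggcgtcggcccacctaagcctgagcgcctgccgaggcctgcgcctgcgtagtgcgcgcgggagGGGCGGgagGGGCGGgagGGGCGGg
INSIG1: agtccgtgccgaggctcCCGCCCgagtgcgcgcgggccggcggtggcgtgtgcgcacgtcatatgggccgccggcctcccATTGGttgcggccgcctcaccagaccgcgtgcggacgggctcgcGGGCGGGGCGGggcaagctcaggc
SREBF2: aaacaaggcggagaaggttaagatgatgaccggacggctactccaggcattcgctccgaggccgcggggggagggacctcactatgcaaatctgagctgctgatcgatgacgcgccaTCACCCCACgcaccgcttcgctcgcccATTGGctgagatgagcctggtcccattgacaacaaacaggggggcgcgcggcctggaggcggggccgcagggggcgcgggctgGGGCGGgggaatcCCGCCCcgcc
The INSIG1 element, TCAGGCCAC at chr7:155297770-155297778, runs past the end of the stretch shown. Over the full 250 bases, INSIG1 held 41 CpG dinucleotides, FADS1 29, LSS 28, SREBF2 24 and TM7SF2 18, all above the median of all windows.

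Priming of cells without CPT (GTA+5-Aza against Con) raised TM7SF2 and FADS1 and lowered LSS, INSIG1 and FASN. These were 5 of the 25 tested members, beside 17.5% of all tested genes called in the same comparison (9.95% higher and 7.53% lower), so that the number called was near the background. The primed and unprimed libraries did not overlap for 5 members with higher and 6 with lower values, beside 18.1% and 16% of all genes. The median log2 fold change was 0.05 in the members and 0.01 in all genes, and the median absolute value was 0.17 and 0.20. In cells that also received CPT (CPT+GTA+5-Aza against CPT), the same 5 members were called in the same direction and NSDHL was called lower, 6 of 25 beside 17% of all genes (9.57% higher and 7.39% lower). The libraries were apart for 4 members with higher and 5 with lower values, beside 16.4% and 14.4% of all genes. These comparisons share no library. By the study's rule of a fold above 1.5 with an unadjusted P under 0.05, TM7SF2 was the only member counted in either, beside 8.44% of all genes without and 8.67% with CPT. In each comparison the 95% interval of 20 of the 25 members lay within 1.5-fold in both directions.

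**Figure D2:**
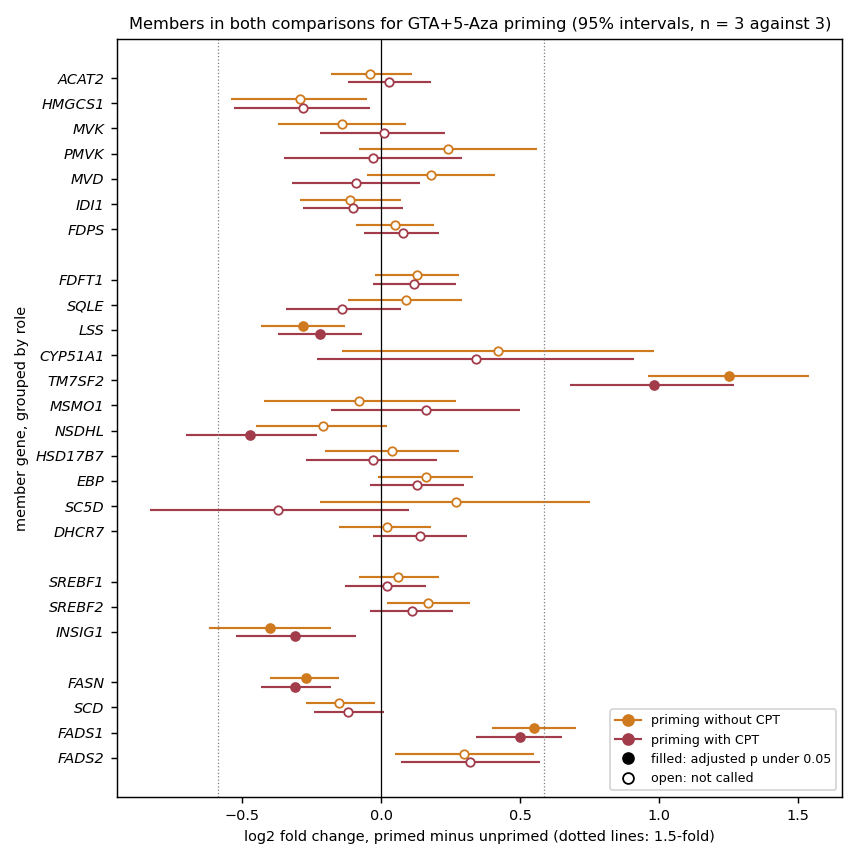
Log2 fold change of the 25 tested members between primed and unprimed cells without CPT (orange) and with CPT (red), with 95% intervals, filled where the adjusted p was under 0.05. TM7SF2 stands alone beyond the dotted 1.5-fold lines at 1.25 and 0.98, and most other intervals cross or lie near 0.

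In the stretch from acetyl-CoA to farnesyl diphosphate, none of the 7 members was called in either comparison. HMGCS1 makes HMG-CoA, the substrate of the rate-limiting reductase. It stood at 28.2, 24.2 and 29.5 CPM in Con, 31.4, 27.7 and 29.5 in CPT, 23.1, 25.2 and 18.3 in GTA+5-Aza, and 26.0, 23.6 and 23.2 in CPT+GTA+5-Aza cells. The GTA+5-Aza libraries overlapped Con, and the CPT+GTA+5-Aza libraries lay below the CPT ones. The log2 fold change of HMGCS1 was -0.29 (SE 0.12, adjusted p = 0.0925) without CPT and -0.28 (adjusted p = 0.107) with CPT. Averaged over both comparisons, with 6 libraries on each side, HMGCS1 was lower by -0.29 (SE 0.08) at an adjusted p of 0.0100. An opposite-strand transcript, ENSG00000261604, covers 37.7% of its exonic bases, and whether the counting used strand is not stated. The thiolase ACAT2, the kinases MVK and PMVK, the decarboxylase MVD, the isomerase IDI1 and the farnesyl diphosphate synthase FDPS had log2 fold changes from -0.14 to 0.24 without CPT and from -0.10 to 0.08 with CPT, with no call. With the GC trend removed, MVD was called lower with CPT (-0.27, adjusted p = 0.0343). FDPS, IDI1 and, further along, HSD17B7 and CYP51A1 have pseudogene copies with which reads may be shared, so that their levels are uncertain.

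From squalene to cholesterol, 2 of 11 members were called without CPT and 3 with CPT. TM7SF2, a sterol reductase of the step after lanosterol demethylation (chr11:65111845-65116384, plus strand), stood at 14.4, 14.4 and 14.7 CPM in Con and at 15.5, 21.0 and 11.9 in CPT cells. With priming it stood at 33.3, 32.0 and 38.3 CPM in GTA+5-Aza cells and 29.1, 32.4 and 34.1 in CPT+GTA+5-Aza cells. Each of the 6 primed libraries lay above each of the 6 unprimed ones. The rise was 2.38-fold without CPT (log2 1.25, SE 0.14, adjusted p = 7.09e-07) and 1.97-fold with CPT (log2 0.98, SE 0.14, adjusted p = 2.14e-05). The highest and the lowest unprimed value were those of CPT replicates 2 and 3, which had GC deviations of 0.23 and -0.16, and the exons of TM7SF2 are 63.0% GC. Without CPT replicate 2, the log2 fold change with CPT was 1.21, and without CPT replicate 3 it was 0.79. Removing the GC trend gave smaller values for TM7SF2, 1.06 without CPT and 0.82 with CPT, both still called. The next gene on the same strand, VPS51, shares 18 exonic bases with TM7SF2 and had a log2 fold change of 0.00 without CPT.

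LSS closes squalene epoxide to lanosterol, the step that opens the sterol stretch. It stood at 181, 205 and 187 CPM in Con and 158, 143 and 171 in GTA+5-Aza cells, and the groups did not overlap. With CPT it stood at 176, 190.1 and 183 CPM in unprimed and 154, 171 and 146 in primed cells, again apart. The log2 fold change was -0.28 (SE 0.07, adjusted p = 0.00687) without CPT and -0.22 (SE 0.07, adjusted p = 0.0324) with CPT. The call was lost without GTA+5-Aza replicate 2 (adjusted p = 0.0533), and with CPT it was lost without CPT+GTA+5-Aza replicate 1 (0.112) or replicate 3 (0.182). Removing the GC trend gave -0.41 without CPT and -0.34 with CPT for LSS.

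NSDHL, a dehydrogenase that removes the methyl groups of lanosterol, stood at 26.5, 30.9 and 28.2 CPM in Con and 25.1, 22.4 and 26.4 in GTA+5-Aza cells. It stood at 32.2, 37.3 and 28.3 CPM in CPT and 24.0, 23.1 and 23.6 in CPT+GTA+5-Aza cells. The primed libraries lay below the unprimed ones in both pairs of groups, and the call was made with CPT only (log2 -0.47, SE 0.11, adjusted p = 0.00478; without CPT -0.21, adjusted p = 0.212). The difference between these values, -0.25 with a 95% interval from -0.58 to 0.08, was not called (adjusted p = 1). Among the other members of this stretch, the squalene synthase FDFT1, the epoxidase SQLE, CYP51A1, MSMO1 and HSD17B7 (which act with NSDHL), the isomerase EBP, SC5D and the final reductase DHCR7 had no call in either comparison. EBP, at 71.8 to 81.8 CPM in Con and 76.1 to 89.7 in GTA+5-Aza cells, had a log2 fold change of 0.16 (adjusted p = 0.196). CYP51A1 and SC5D, below 10 CPM in each library, had intervals reaching past 1.5-fold, so that changes of that size were not excluded for them.

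**Figure D3:**
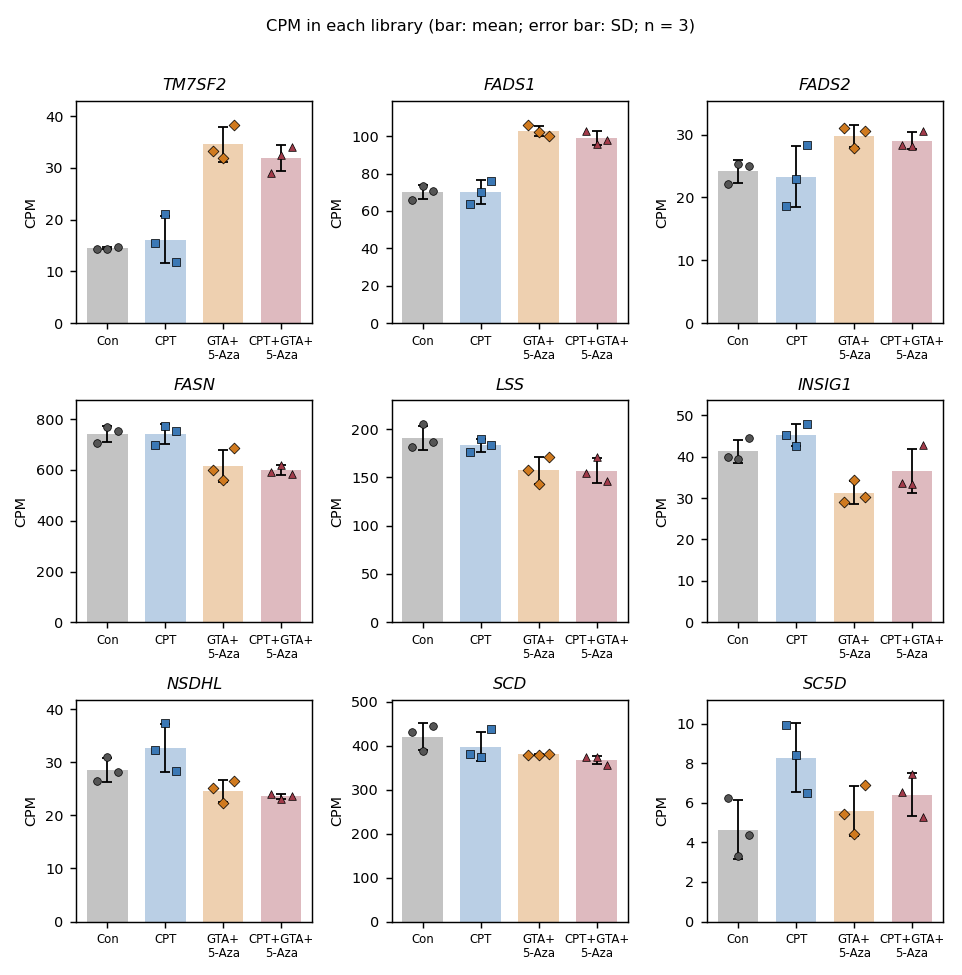
CPM in each library for 9 members, with 3 points per group, the bar at the mean and the error bar at 1 SD; every axis starts at 0. In TM7SF2 and FADS1 the 6 primed libraries lie above the 6 unprimed ones, in FASN, LSS and NSDHL they lie below, and in INSIG1 CPT+GTA+5-Aza replicate 3 lies among the unprimed libraries.

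Of the regulators, INSIG1 (chr7:155297776-155310235) was called lower in both priming comparisons. It stood at 39.9, 39.5 and 44.4 CPM in Con and 29.1, 34.4 and 30.2 in GTA+5-Aza cells, without overlap. In CPT cells it stood at 45.2, 42.5 and 47.8 CPM and in CPT+GTA+5-Aza cells at 33.7, 33.3 and 42.7, where replicate 3 of the latter lay just above the lowest CPT library. The log2 fold change was -0.40 (SE 0.11, adjusted p = 0.00857) without CPT and -0.31 (SE 0.10, adjusted p = 0.0440) with CPT. Without CPT the call was lost without Con replicate 3 (0.0594) or GTA+5-Aza replicate 1 (0.0575). With CPT it was lost without CPT+GTA+5-Aza replicate 1 (0.190) or 2 (0.204), without CPT replicate 1 (0.0978) or 3 (0.121), and without GTA+5-Aza replicate 1 (0.0527). Between CPT+GTA+5-Aza and Con cells the groups overlapped, and INSIG1 was not called (log2 -0.18, 95% interval -0.39 to 0.04, adjusted p = 0.281).

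The genes for the transcription factors themselves had small differences, which depended on the treatment of GC content. SREBF1 lay between 241 and 308 CPM over the 12 libraries, with log2 fold changes of 0.06 and 0.02 and no call. With the GC trend removed it turned lower, at -0.12 without CPT (not called), -0.16 with CPT (adjusted p = 0.0242) and -0.14 averaged (adjusted p = 0.00224). SREBF2 stood at 100.3, 98.7 and 98.5 CPM in Con and 112, 101 and 121 in GTA+5-Aza cells, just apart, and at 90.2, 96.6 and 101 in CPT and 101, 99.7 and 109.6 in CPT+GTA+5-Aza cells, which overlapped. Its log2 fold change was 0.17 (adjusted p = 0.121) and 0.11 (adjusted p = 0.365), and the averaged value of 0.14 (SE 0.05) had an adjusted p of 0.0453, which rose above 0.05 without each of 9 of the 12 libraries in turn. With the GC trend removed the averaged value was 0.02 (adjusted p = 0.728). The antisense transcript SREBF2-AS1, which shares 731 exonic bases with it, was higher by 0.45 (adjusted p = 0.0389) without CPT.

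In fatty acid synthesis, the synthase FASN was called lower and the desaturase FADS1 higher in both priming comparisons. The desaturase FADS2 was called higher only when both comparisons were averaged. FASN, which builds palmitate (chr17:82078338-82098294, minus strand), stood at 706, 768 and 753 CPM in Con and 599, 561 and 686 in GTA+5-Aza cells. With CPT it stood at 697, 773 and 752 CPM in unprimed and 591, 620.1 and 585 in primed cells. The groups did not overlap in either comparison, and the log2 fold change was -0.27 (SE 0.06, adjusted p = 0.00232) without and -0.31 (SE 0.06, adjusted p = 0.000763) with CPT. The exons of FASN are 65.3% GC, and genes of the highest GC quartile had a median log2 fold change of 0.16 without CPT. With the GC trend of every library subtracted, the value of FASN was -0.48 without CPT and -0.50 with CPT.

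FADS1, the desaturase that yields arachidonic and eicosapentaenoic acid (chr11:61799627-61829318, minus strand), stood at 66.0, 73.3 and 70.8 CPM in Con and 63.5, 70.3 and 76.2 in CPT cells. In primed cells it stood at 106, 102 and 100.3 CPM in GTA+5-Aza and 103, 95.8 and 98.2 in CPT+GTA+5-Aza. All 6 primed libraries lay above all 6 unprimed ones, by a fold of 1.46 without CPT (log2 0.55, SE 0.07, adjusted p = 8.98e-06) and 1.41 with CPT (log2 0.50, SE 0.08, adjusted p = 3.33e-05). Removing the GC trend gave log2 values of 0.49 without CPT and 0.43 with CPT for FADS1. FADS2, the desaturase of the step before, is on the opposite strand. Its annotated span (chr11:61792980-61867354) contains that of FADS1, with 490 exonic bases shared, and whether the counting used strand is not stated. FADS2 stood at 22.1, 25.4 and 25 CPM in Con and 31.0, 27.8 and 30.6 in GTA+5-Aza cells, without overlap. In CPT cells it stood at 18.6, 22.9 and 28.3 CPM and in CPT+GTA+5-Aza cells at 28.4, 28.2 and 30.6, which overlapped at CPT replicate 3. Its log2 fold changes of 0.30 (adjusted p = 0.0949) and 0.32 (adjusted p = 0.0762) were not called singly, and the averaged value of 0.31 (SE 0.09) was (adjusted p = 0.00741). With the GC trend removed the averaged value was 0.20 (adjusted p = 0.0631). FADS3, the remaining gene of this cluster, is no member and was looked up after the values of FADS1 and FADS2 were seen. It stood at 15.7 to 17.9 CPM in Con and 20.3 to 23.5 in GTA+5-Aza cells (log2 0.40, adjusted p = 0.0237) and was also called with CPT (log2 0.49, adjusted p = 0.00682).

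SCD, the desaturase that makes oleate, stood at 431, 387 and 444 CPM in Con and 379, 379 and 382 in GTA+5-Aza cells. With CPT it stood at 382, 375 and 437 CPM in unprimed and 373, 373 and 357 in primed cells. The primed libraries were below the unprimed ones in both pairs of groups by a narrow margin. The values of -0.15 (adjusted p = 0.0974) and -0.12 (adjusted p = 0.210) were not called, and the averaged value of -0.13 (SE 0.04) had an adjusted p of 0.0202. That call was lost without Con replicate 3 (0.0664), CPT replicate 3 (0.0533) or CPT+GTA+5-Aza replicate 3 (0.0625).

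Averaged over both comparisons, 10 of the 25 members were called, 4 higher (TM7SF2, FADS1, FADS2, SREBF2) and 6 lower (HMGCS1, LSS, NSDHL, INSIG1, FASN, SCD), beside 30.9% of all tested genes (16.8% higher and 14% lower). By the study's rule 1 member, TM7SF2, was counted, beside 9.6% of all genes. In the full combination against Con, which uses libraries of the comparisons above, TM7SF2 (log2 1.13) and FADS1 (0.50) were higher and LSS (-0.28), FASN (-0.31) and SCD (-0.20) lower, 5 of 25 beside 16.8% of all genes (9.62% higher and 7.16% lower), and TM7SF2 alone met the study's rule, which 8.32% of all genes met. Without CPT+GTA+5-Aza replicate 3 this number was 3, with LSS (adjusted p = 0.0617) and SCD (0.118) no longer called. The share of all genes called without that library is not given here. SCD was also lost without Con replicate 1 (0.0961) or 3 (0.149) and without CPT+GTA+5-Aza replicate 1 (0.0593) or 2 (0.0617).

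Neighbouring steps of lipid metabolism were compared by list, and these lists hold 82 genes in all. Among 14 genes of late sterol steps and of the isoprenoid branch, 1 was higher and 3 were lower in both comparisons. Of all genes, 9.95% were higher and 7.53% lower without CPT, and 9.57% and 7.39% with CPT. LBR, a nuclear envelope protein with the same sterol reductase activity as TM7SF2, stood at 147, 138 and 131 CPM in Con and 123, 119 and 106 in GTA+5-Aza cells. With CPT, LBR stood at 138, 132 and 157 CPM in unprimed and 121, 109 and 109 in primed cells. LBR was thus lower (log2 -0.26, adjusted p = 0.0179, and -0.33, adjusted p = 0.00261) in the primed libraries in which TM7SF2 was higher. NUS1, a subunit of the enzyme that makes dolichol, and PDSS2, which builds the side chain of coenzyme Q, were lower by -0.32 (adjusted p = 0.00154) and -0.44 (adjusted p = 0.0101) without CPT.

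Of 23 tested genes that act in fatty acid synthesis, elongation and activation, 5 were higher and 4 lower without CPT, and 5 higher and 3 lower with CPT, beside 17.5% and 17% of all genes called in either direction. The elongase of polyunsaturated fatty acids ELOVL5 stood at 269 to 281 CPM in Con and 218 to 227 in GTA+5-Aza cells (log2 -0.29, adjusted p = 0.000502). LPIN1, a phosphatidate phosphatase, was lower by -0.40 (adjusted p = 0.000996), and of the acyl-CoA synthetases ACSL3 was lower by -0.28 (adjusted p = 0.00951) and ACSL4 higher by 0.40 (adjusted p = 0.00315). Of 10 genes of sterol sensing 1 was lower without CPT and 0 were called with CPT, and of 14 genes of cholesterol handling, the same numbers held. These were ERLIN1 (-0.24, adjusted p = 0.00658) and SCARB1 (-0.23, adjusted p = 0.0167), named here after their values were seen. Of 15 genes of fatty acid oxidation, 1 was higher without CPT and 2 with CPT, and 0 were lower, beside 9.95% and 9.57% of all genes higher. ACADVL, a mitochondrial acyl-CoA dehydrogenase, was higher without CPT (0.32, adjusted p = 0.00993) and with CPT (0.35, adjusted p = 0.00513).

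Of 4 genes listed for the supply of acetyl-CoA, 3 were tested. All 3 were called in both priming comparisons, beside 17.5% and 17% of all genes, and 1 of them, ACSS2, in the full combination against Con. ACSS1, the mitochondrial acetyl-CoA synthetase, stood at 12.5, 13.2 and 16.5 CPM in Con and 21.1, 21.5 and 25.9 in GTA+5-Aza cells (log2 0.70, SE 0.14, adjusted p = 0.000951). ACSS2, the synthetase of cytosol and nucleus that activates free acetate, stood at 27.8, 22.3 and 21.8 CPM in Con and 35.7, 31.3 and 32.7 in GTA+5-Aza cells (log2 0.47, SE 0.12, adjusted p = 0.00775). ACLY, which makes cytosolic acetyl-CoA from citrate, stood at 508, 494 and 501 CPM in Con and 467, 434 and 458 in GTA+5-Aza cells (log2 -0.14, SE 0.05, adjusted p = 0.0414). In each, the groups did not overlap, and both synthetases were higher while the citrate enzyme was lower. With CPT the values were 0.46 (adjusted p = 0.0288) for ACSS1, 0.54 (adjusted p = 0.00285) for ACSS2 and -0.16 (adjusted p = 0.0210) for ACLY. In the full combination they were 0.41 (adjusted p = 0.0514), 0.51 (adjusted p = 0.00423) and -0.12 (adjusted p = 0.0946). How the calls of genes outside the members fare without single libraries or under most other processing is not given here.

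**Figure D4:**
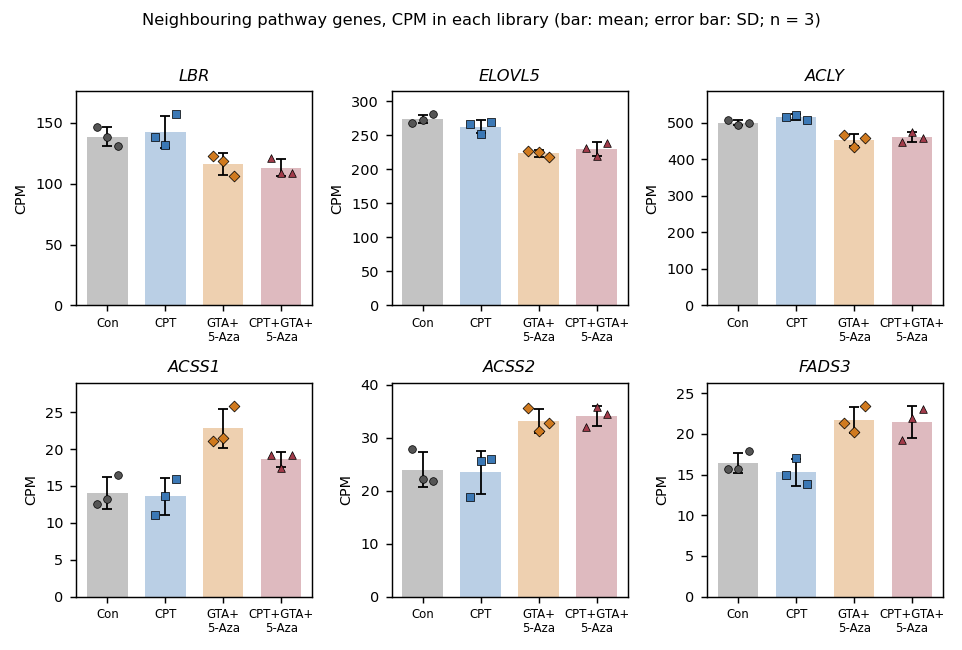
CPM in each library for LBR, ELOVL5, ACLY, ACSS1, ACSS2 and FADS3, with 3 points per group, the bar at the mean and the error bar at 1 SD. ACSS1, ACSS2 and FADS3 are higher and LBR, ELOVL5 and ACLY lower in the primed libraries, and each primed group is apart from its unprimed group.

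CPT itself gave no call among the members, in unprimed or in primed cells, beside 0% of all tested genes in both comparisons. At an unadjusted p under 0.05, 2 of 25 members (SC5D and SQLE) passed in unprimed cells, beside 733 of all 17123 genes (4.28%), and 1 (INSIG1) in primed cells, beside 464 of all genes (2.71%). DESeq2 called 4 genes of all in unprimed and 1 in primed cells, and the likelihood ratio test 4 and 3, and neither called a member. SC5D stood at 6.26, 3.29 and 4.38 CPM in Con and 9.95, 8.41 and 6.5 in CPT cells, just apart. In GTA+5-Aza cells it stood at 5.45, 4.41 and 6.89 CPM and in CPT+GTA+5-Aza cells at 6.55, 7.44 and 5.27, which overlapped. Its log2 fold change was 0.84 (95% interval 0.37 to 1.31, adjusted p = 0.935) in unprimed cells and 0.21 (-0.27 to 0.68) in primed cells. SC5D was the only member past the study's rule, which 1.83% of all genes met in unprimed cells. For 23 of the 25 members in unprimed and 22 in primed cells, the 95% interval of the CPT difference lay within 1.5-fold.

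**Figure D5:**
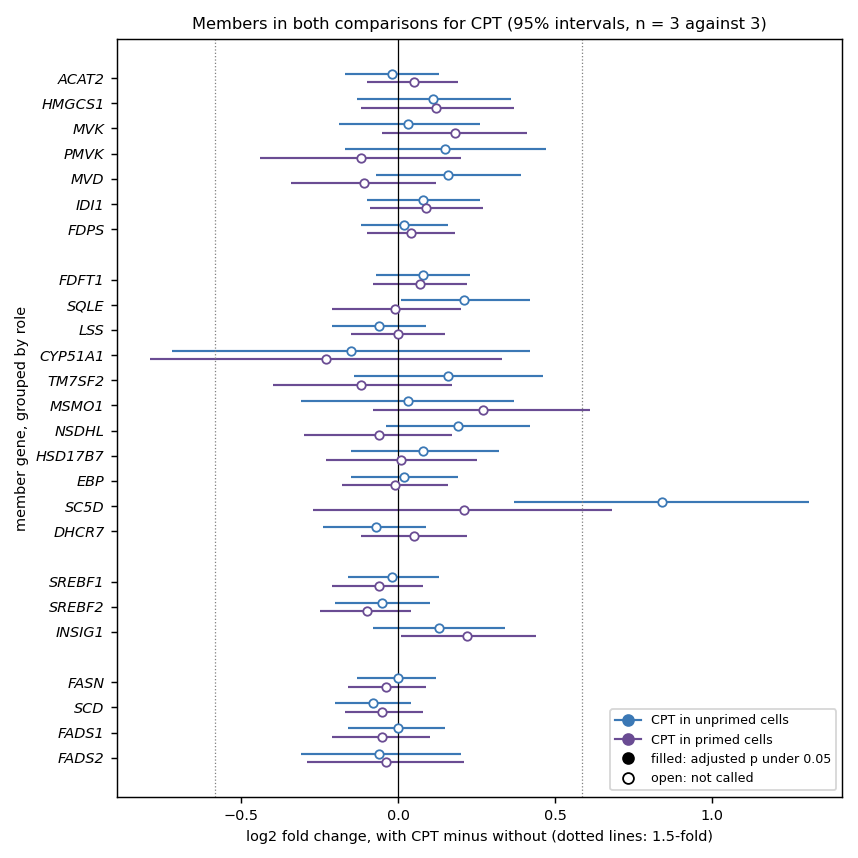
Log2 fold change of the 25 tested members between cells with and without CPT, in unprimed (blue) and primed cells (purple), with 95% intervals; open points mark that no adjusted p was under 0.05. SC5D in unprimed cells, at 0.84, is the only point beyond the dotted 1.5-fold lines.

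Whether priming acted on the members otherwise with CPT than without it was tested as an interaction. None of the 25 members was called, beside 0% of all genes, and none passed an unadjusted p under 0.05, beside 451 of all genes (2.63%). Of all genes DESeq2 called 0 and the likelihood ratio test 3. The smallest unadjusted p was that of SC5D, 0.0640. The interaction of TM7SF2 was -0.27 (95% interval -0.69 to 0.14) on the log2 scale and that of FADS1 -0.05 (-0.27 to 0.17). For 19 of the 25 members, the interval of this difference lay within 1.5-fold.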

How the data were processed

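The 12 libraries were put into the 4 groups by their labels, 3 in each. Per the submitters' processing notes and the paper's methods, the authors used Trim Galore for trimming, HISAT2 2.2.1 for alignment to GRCh38 and HTSeq for counting per gene. The deposited values are raw counts, 16162490 to 21224665 per library. The annotation release and the strand setting are not given in the sources used here. Symbols, exonic lengths and GC content came from GENCODE v44, which held 52181 of 63677 identifiers and 99.047% of the counts. The GENCODE v44 identifier of ACACA was not among those of the tables, and ACACA was not analysed here.

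Counts were joined by identifier and tested in R 4.3.3 with edgeR 4.0.16 (filterByExpr, TMM, glmQLFit, glmQLFTest) in 1 fit of 12 libraries with Benjamini-Hochberg adjustment over 17123 genes. Fold changes come from that fit and CPM from TMM-scaled library sizes. Intervals and the limit of 3 counts for a count of 0 cover the spread in the fit and counting error. Alternatives were other scalings and filters, DESeq2 1.42.0, the likelihood ratio test, removal of the GC trend, only the groups compared, the replicate block, and leaving out each library. The method was tested on simulated data. Named were all members, genes of the other lists called in both priming comparisons with the same sign (at most 4 per list by p), ACLY, ACSS1 and ACSS2; 1 gene of these is not reported here. The members and the gene lists were chosen with earlier results of these data known.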

Additional observations from a re-analysis of the deposited data

How the results depend on the processing

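TM7SF2, FADS1 and FASN were called in both priming comparisons under all 10 processing alternatives and without each of the 12 libraries. Of 550 member values recomputed for priming without CPT, 526 kept direction and side of the threshold and 14 changed sign, none of them of a called member; the cause was not tested. With library totals alone, ACAT2 was at 0.01. With the GC trend removed, ACAT2 was at 0.01, MSMO1 at 0.00, FDPS at -0.01, MVD at -0.02, DHCR7 at -0.10 and SREBF1 at -0.12. Without 1 library, ACAT2 ran from -0.10 to 0.02, MSMO1 from -0.24 to 0.06, DHCR7 from -0.03 to 0.09 and SREBF1 from -0.03 to 0.11. The study's rule counted 1 member in each priming comparison, in the averaged one, in the full combination and for CPT in unprimed cells. In the full combination, 8 members were called with the GC trend removed, SREBF1 among them (-0.18, adjusted p = 0.0115), and 3 to 6 without 1 library. Leaving out 1 library gave 4 to 6 members for priming without CPT, 4 to 7 with CPT and 8 to 13 for the average. The share of all genes called in these settings, or with the replicate block below, is not given here. These counts therefore cannot be read against a background. The SREBF2 average lost its call with the GC trend removed (0.14 to 0.02, adjusted p = 0.728), with RLE scaling (0.0559) and with no filter on low counts (0.0632), that of FADS2 with the GC trend removed (0.31 to 0.20, adjusted p = 0.0631), and that of SCD with library totals alone (0.108). With library totals alone LSS (0.0856) and INSIG1 (0.0823) lost the call with CPT, and INSIG1 also with upper quartile scaling (0.0518) and with only the groups compared (0.0700). Other members gained a call. In the full combination, FDFT1 (log2 0.20) was called under 5 of 10 alternatives and NSDHL (-0.28) under 2. For the average, FDFT1 and EBP were each called under 2 of 9 alternatives and MVK under 1. FADS2 was called under 1 of 10 without CPT and 1 with CPT, and SREBF2 under 1 without CPT. Of 18 pairs of same-numbered libraries, 1 had deviations correlated above 0.1 (-0.0844 to 0.117, and -0.0969 to 0.0708 in the other pairs). The deviations thus gave little sign of pairing by replicate number. They cannot tell whether same-numbered libraries were prepared together. With the replicate block, the number of members called was 5 without CPT, 6 with CPT, 10 for the average, 5 for the full combination and 0 for CPT and the interaction. Depth limits the genes below 10 CPM, CYP51A1 and SC5D, whose SE reached 0.28 in a comparison of groups and 0.39 in the interaction.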
